A study of Mus musculus with 6 samples.

Results

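Ubiquitin-conjugating E2 enzymes were followed in primary spermatocytes of mice with and without circSry, a circular transcript of Sry, the gene that starts testis development. Members were all genes of the deposited table whose symbol was Ube2, 1 letter and an optional number, which gave 32 of 53700 listed genes. The rule used names and no measured value, though it was set with earlier results of these data known. Primary spermatocytes, the cells of meiotic prophase, had been sorted by Hoechst staining from testes of C57BL/6 mice aged 8 weeks. There were 3 libraries of wild type (WT) and 3 of circSry KO. How the knockout was made is not stated in the labels, which give no treatment and no other allele for either group. Whether the libraries of a group are separate mice is not stated either, and p-values here reflect only the spread between these 6 samples, which may be technical.

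An E2 enzyme takes activated ubiquitin, or a related small protein, from an E1 enzyme onto a cysteine and, with an E3 ligase, passes it to a target. The choice of E2 bears on the kind of chain that is built, and so on whether the target is degraded, moved or used as a signal. In the male germ line the best known members are Ube2a and Ube2b, the mouse counterparts of yeast RAD6. They ubiquitinate histone H2B and the replication clamp PCNA, and male mice without Ube2b are infertile. Ube2a lies on the X chromosome, which is silenced in the sex body during pachytene of meiosis.

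The libraries held 7400360 to 9294723 estimated counts, and 16829 genes had enough counts to be tested. Levels are given as CPM, counts scaled to library totals of equal size with TMM factors, for comparisons between libraries. They are given as TPM, which also divides by transcript length, for comparisons between genes. Differences are circSry KO against WT. A spermatocyte list of 7 genes (Sycp1, Sycp3, Piwil1, Ldhc, Hormad1, Meiob and Spag6l) was expressed in each library, with a summed 5330 to 6453 CPM in WT, 4623 and 3308 CPM in circSry KO replicates 1 and 2 and 8770 CPM in replicate 3. By this sum, replicates 1 and 2 were below and replicate 3 above all WT libraries. Ldhc was its largest part, at 4377, 2809 and 3602 CPM in WT and 3978, 2757 and 6975 CPM in KO. In 3 of the 7 genes, Sycp1, Hormad1 and Piwil1, each KO library, replicate 3 included, was below each WT library. The median log2 fold change of the list was -0.75 (edgeR, 0 of 7 past an adjusted p of 0.05). Without KO replicate 3 it was -1.98, with 5 lower after adjustment, against 16.2% of all genes in that fit. Piwil1, a germ-line small RNA factor, stood at 1027 to 1437 CPM in WT, 55.5 and 74.6 CPM in KO replicates 1 and 2 and 832 CPM in replicate 3. Its log2 fold change was -1.91 ± 0.94, against 0.35 ± 0.40 (SE; edgeR adjusted p = 0.631) for Ldhc, whose groups overlapped. circSry KO replicate 3 stood apart. Across genes, log2 CPM of this library had correlations of 0.927, 0.846 and 0.875 with WT replicates 1 to 3 and of 0.878 and 0.778 with KO replicates 1 and 2, whose own correlation was 0.946. These are correlations across genes, which are not independent replicates. Values from a fit without it are given beside E2 genes and gene lists that it moves; its p-values are too small, because the library left out was chosen for being unlike the rest of its group. In bulk samples, fewer cells of a type and less RNA per cell cannot be told apart.

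The RAD6 genes code for near-identical proteins from coding sequences that differ at many bases. The stretch that holds the histidine, proline and asparagine codons next to the active site is shown for both, from GENCODE transcripts (GRCm38), with the bases that differ in capitals. The exons of the Ube2a stretch lie on the plus strand of chromosome X between 36881722 and 36882663, and those of the Ube2b stretch on the minus strand of chromosome 11 between 51988636 and 51991418.
Ube2a: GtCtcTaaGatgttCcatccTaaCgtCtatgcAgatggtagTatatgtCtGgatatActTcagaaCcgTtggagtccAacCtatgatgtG
Ube2b: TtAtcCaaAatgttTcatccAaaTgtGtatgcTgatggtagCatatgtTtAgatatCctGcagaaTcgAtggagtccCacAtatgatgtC
The stretches differ at 19 of 90 bases. Over the whole coding sequence of 459 bases the genes were identical at 77.6%, and the longest identical run was 17 bases. The deposited counts of both genes were whole numbers in each library.

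The study's title concerns miR-138-5p, a microRNA that circSry is proposed to bind, so the seed of that microRNA is shown with its matches in 3′ UTRs. The mature sequence (RefSeq, GRCm38.p6, chromosome 9, plus strand, 122682898 to 122682920) has its seed, bases 2 to 8, in capitals.
mmu-miR-138-5p: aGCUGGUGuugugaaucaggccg
The letters searched were CACCAGC and ACCAGCA, on the transcript strand only, in the 3′ UTRs of all annotated coding transcripts, and an 8-base match CACCAGCA counts as both. Of the 29 tested members 8 (27.6%) held at least 1 match, against 21.3% of the 13912 tested genes with a 3′ UTR. The longest 3′ UTR had a median of 1598 bases in the members and 1069 in all those genes, and longer UTRs hold more matches by length alone. Ube2c held the most, 3 matches; the other 7 held 1 each and included Ube2h, Ube2j2, Ube2m, Ube2q1, Ube2r2 and Ube2v1. The 3 matches of Ube2c (chromosome 2, plus strand) are shown with the matched bases in capitals.
Ube2c at 164777455 to 164777461: aaagccaagagCACCAGCtggccctcacca
Ube2c at 164778173 to 164778179: ctagctctactCACCAGCgatcatctcctc
Ube2c at 164778343 to 164778349: gaaccactccaaACCAGCAgtacctcccag
A match is a description of letters and not a measured site. The 3 matches of Ube2c start at bases 231, 949 and 1119 of an annotated 3′ UTR of 1598 bases. The deposited count and FPKM imply an effective transcript length of 711 to 748 bases for Ube2c, which is shorter than that UTR. Whether transcripts that hold these matches were present was not tested. The median log2 fold change was 0.10 in the 8 members with a match and 0.23 in the 21 without; over all tested genes with a 3′ UTR it was -0.08 and 0.09.

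E2 genes differed widely in level. In WT the highest was Ube2s, which extends chains on targets of the anaphase-promoting complex, at 1188, 948 and 893 TPM. Ube2d3, an E2 that works with many ligases, followed at 332, 419 and 482 TPM. Ube2m, which charges cullins with NEDD8, stood at 329, 316 and 359 TPM, and Ube2l3, which serves HECT and RBR ligases, at 428, 251 and 258 TPM. All WT values of Ube2s lay above those of every other member. The next 4 members in the order overlapped each with its neighbour, so their order is not fixed by 3 libraries. The 5 highest members together made up 55.3% to 61.5% of the summed TPM of the members in WT.

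**Figure D1:**
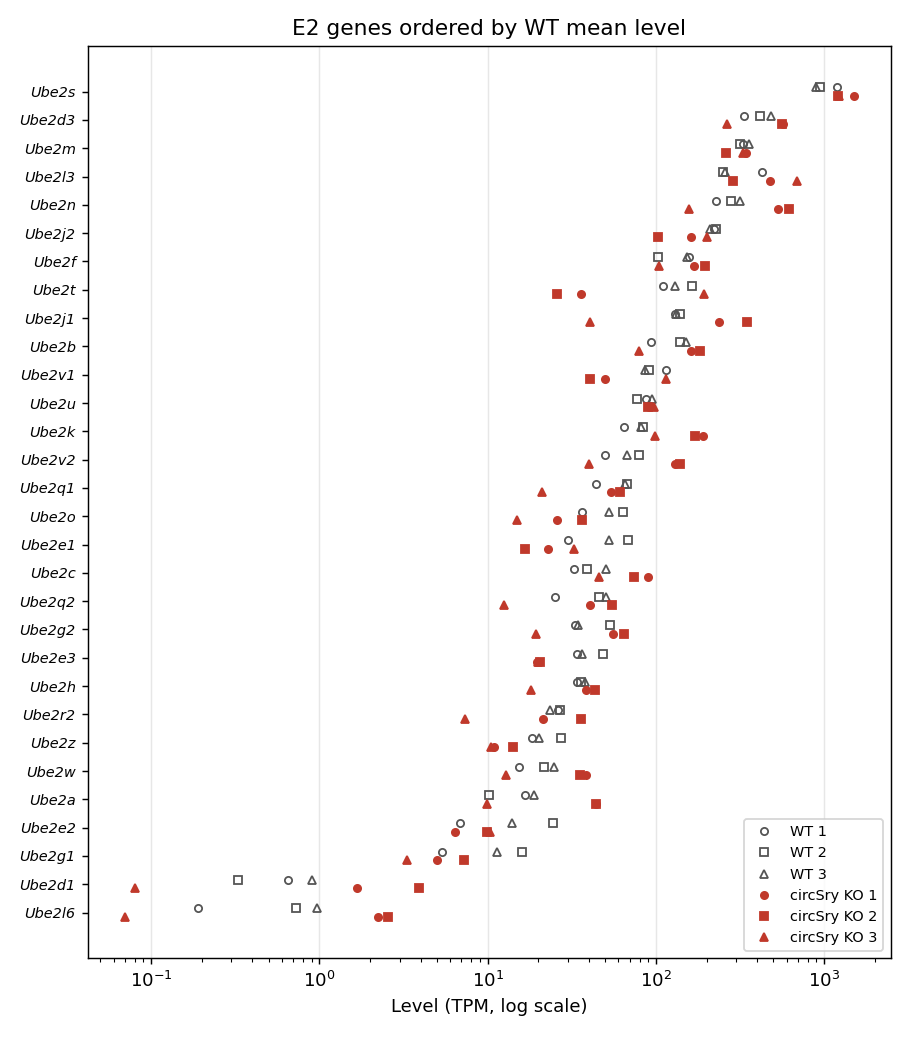
Level of the E2 genes reported here in each library in TPM on a log axis, ordered by the WT mean; open grey symbols are WT, filled red symbols circSry KO, and circle, square and triangle are replicates 1, 2 and 3. Ube2s is highest at 893 to 1188 TPM in WT, Ube2d1 and Ube2l6 stay below 1 TPM in WT, and Ube2d4, at 0 in each library, is not drawn.

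Of the 31 neighbour pairs in the WT order, 25 overlapped. Among the 6 that did not, Ube2n stood above Ube2j2, Ube2j2 above Ube2f, and Ube2h above Ube2r2. Ube2b, at 93.0, 139 and 151 TPM, was 11th of 32 by its mean. Ube2a, at 16.7, 10.2 and 18.95 TPM, was 27th and lay below Ube2b in each WT library. The remaining members were at the bottom and were not tested. Ube2d1 had 4, 2 and 2 counts in WT and 16, 17 and 1 in KO, and Ube2l6, the E2 of the interferon-induced modifier ISG15, had 1, 5 and 6 against 23, 18 and 1. Ube2d4, annotated as a processed pseudogene in mouse, was at 0 counts throughout, which per library allows at most 0.332 to 0.412 CPM (3 counts, counting error only).

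The comparison asks how loss of circSry is reflected in the transcripts of these enzymes. No E2 gene passed an adjusted p of 0.05 in edgeR, 0 higher and 0 lower of 29 tested; over all genes 0% was called in either direction. At an unadjusted p under 0.05 edgeR found 6 members higher (Ube2a, Ube2c, Ube2k, Ube2n, Ube2v2 and Ube2w) and 1 lower (Ube2o). That is 20.7% and 3.45% of the members, against 13.6% of all genes higher and 9.84% lower. DESeq2 called 2 members higher after adjustment, Ube2c and Ube2k, or 6.45% of 31, against 4.94% of all genes higher and 3.58% lower. The median log2 fold change was 0.23 over the 29 tested members and 0.12 over all genes tested. Without KO replicate 3 it was 0.17 over 31 members and 0.019 over all genes in that fit. Those 31 include Ube2d1 and Ube2l6, at 2.40 and 2.17, which raise the member median. Both entered only through the KO libraries in which they were high. In the fit of all 6 libraries single members ranged from -0.80 to 1.28. With no filter on low counts edgeR called 0 of 31 members, against 1.75% of all genes higher and 1.03% lower. Limma called 0 of 29 on log2(TPM + 1), against 0.0225% and 0.0113%, and 0 on log2(TPM + 0.1), against 0.0225% and 0.0169%. With the trend on transcript length removed from each library, 3 members were higher (Ube2j1, Ube2k and Ube2w) and 0 lower at an unadjusted p under 0.05 in edgeR, or 10.3% against 12.8% of all genes, and 0 against 8.7%.

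**Figure D2:**
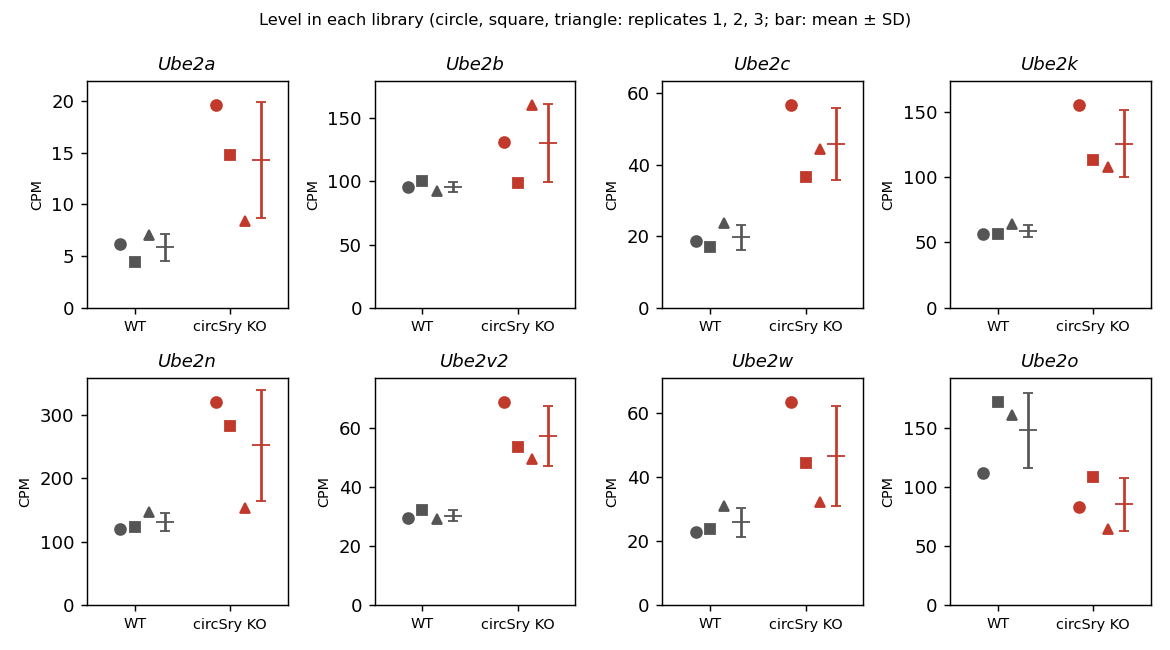
CPM of Ube2b and of the 7 members at an unadjusted p under 0.05 in each library, with the mean ± SD of 3 libraries beside the points. In the 7 members the groups do not overlap, while circSry KO replicate 2 of Ube2b (98.5 CPM) lies within the WT range.

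Ube2a, the X-linked RAD6 gene, stood at 6.18, 4.43 and 6.99 CPM in WT and at 19.6, 14.8 and 8.42 CPM in KO. Each KO library lay above each WT library, and KO replicate 3 was nearest to WT. The log2 fold change was 1.28 ± 0.43 (SE; edgeR unadjusted p = 0.0173, adjusted p = 0.137), the largest of the members tested. On the TPM scale the groups overlapped, at 44.2, 44.1 and 9.94 TPM in KO against 10.2 to 18.95 TPM in WT. There KO replicate 3 lay just below all WT libraries. Without KO replicate 3 the log2 fold change was 1.50 (edgeR adjusted p = 0.00714; alternatives ranged from 0.00714 to 0.468). After removal of each library's trend on transcript length it was 0.72 (edgeR adjusted p = 0.411).

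Ube2b stood at 95.2, 99.9 and 92.1 CPM in WT and at 131, 98.5 and 160 CPM in KO. The groups overlapped, and the log2 fold change was 0.44 ± 0.30 (SE; edgeR adjusted p = 0.404). It was 0.22 without KO replicate 3 (edgeR adjusted p = 0.57) and 0.088 on the log2(TPM + 1) scale. Ube2b stood at 162, 183 and 79.1 TPM in KO against 93.0 to 151 TPM in WT. KO replicate 3, the highest library in CPM, was the lowest in TPM. Within a library, the ratio of the RAD6 genes does not depend on library size, but in TPM it depends on effective transcript length. The deposited count and FPKM imply 821 to 1547 bases for Ube2b and 477 to 719 bases for Ube2a over the libraries. Ube2b exceeded Ube2a by 2.47, 3.75 and 2.99 on the log2 TPM scale in WT and by 1.87, 2.05 and 2.98 in KO. KO replicates 1 and 2 lay below all WT libraries and KO replicate 3 within their range. The difference of -0.77 was within the spread between libraries (two-sided exact permutation test, p = 0.2; adjusted p = 0.856 over 11 pairs of related E2 genes; the smallest p this design allows is 0.1). It was -1.11 without KO replicate 3 and -0.43 without WT replicate 2. Of the 11 pairs, 0 had groups that did not overlap on the TPM scale; in CPM the ratios of Ube2q2 to Ube2q1 and of Ube2f to Ube2m were higher in each KO library than in all WT libraries.

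The list of ligases that work with the RAD6 enzymes or in damage signalling had a median log2 fold change of -0.56 over 20 tested genes. Of these, 0 passed after adjustment in edgeR, and at an unadjusted p under 0.05 there were 4 lower and 0 higher genes. The median was -0.43 without KO replicate 3, with 0 higher and 6 lower after adjustment. For this list and those below, the shares over all genes were 13.6% higher and 9.84% lower at an unadjusted p under 0.05. Without KO replicate 3, 18.5% of all genes were higher and 16.2% lower after adjustment. Whether any list differs from these shares was not tested. Rnf20, part of the ligase for histone H2B, averaged 65.4 ± 23.1 CPM in WT against 20.6 ± 5.10 CPM in KO (SD, n = 3 each), which is -1.67 ± 0.38 on the log2 scale (SE; edgeR adjusted p = 0.0897). Rad18, the ligase for PCNA, averaged 97.4 ± 17.9 against 46.2 ± 7.55 CPM (SD, n = 3 each), or -1.08 ± 0.31 (SE; edgeR adjusted p = 0.105). In both genes each KO library was lower than each WT library. Trip12, the most abundant gene of the list, had -0.22 ± 0.30 (SE).

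Ube2n builds non-degradative ubiquitin chains used in DNA repair and signalling, together with Ube2v1 or Ube2v2, which resemble E2 enzymes but lack the active cysteine. Ube2n stood at 121, 124 and 147 CPM in WT and at 320, 283 and 152 CPM in KO. The groups did not overlap, although KO replicate 3 lay just above the highest WT library. The log2 fold change was 0.95 ± 0.35 (SE; edgeR adjusted p = 0.162). Ube2v2 stood at 29.4, 32.3 and 29.1 CPM in WT and at 68.7, 53.4 and 49.6 CPM in KO, also without overlap, with 0.92 ± 0.30 (SE; edgeR adjusted p = 0.128). On the TPM scale both genes overlapped between groups. Counts of Ube2n were not whole in any of the 6 libraries, so reads shared with other loci bear on its level.

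The other partner went another way in 2 of the KO libraries. Ube2v1 stood at 132, 91.5 and 87.9 CPM in WT, at 61.6 and 37.3 CPM in KO replicates 1 and 2 and at 204 CPM in KO replicate 3. The first 2 KO libraries were below and the last above all WT libraries, so the log2 fold change of -0.04 ± 0.59 (SE) averages opposite differences. Leaving out KO replicate 3 gave -1.11 (edgeR adjusted p = 0.024). The log2 ratio of Ube2v2 to Ube2v1 in TPM was -1.19, -0.21 and -0.35 in WT, 1.37 and 1.78 in KO replicates 1 and 2 and -1.51 in KO replicate 3 (difference of means 1.13; two-sided exact permutation test, p = 0.4, adjusted p = 0.856). Exons of Ube2v1 are shared with Gm20431, a gene on the same strand, and its counts were not whole in 3 libraries, so its level is uncertain.

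Ube2t, the E2 of the Fanconi anemia pathway that acts at DNA crosslinks, had the same pattern. It stood at 76.3, 90.3 and 74.9 CPM in WT, at 27.1 and 15.3 CPM in KO replicates 1 and 2 and at 150 CPM in KO replicate 3. Without KO replicate 3 the log2 fold change was -1.97 ± 0.34 (SE; edgeR adjusted p = 0.00173; alternatives ranged from 0.00173 to 0.986), against -0.33 ± 0.74 with it. TPM values had the same order, at 36.0, 25.7 and 194 in KO against 111 to 164 in WT.

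**Figure D3:**
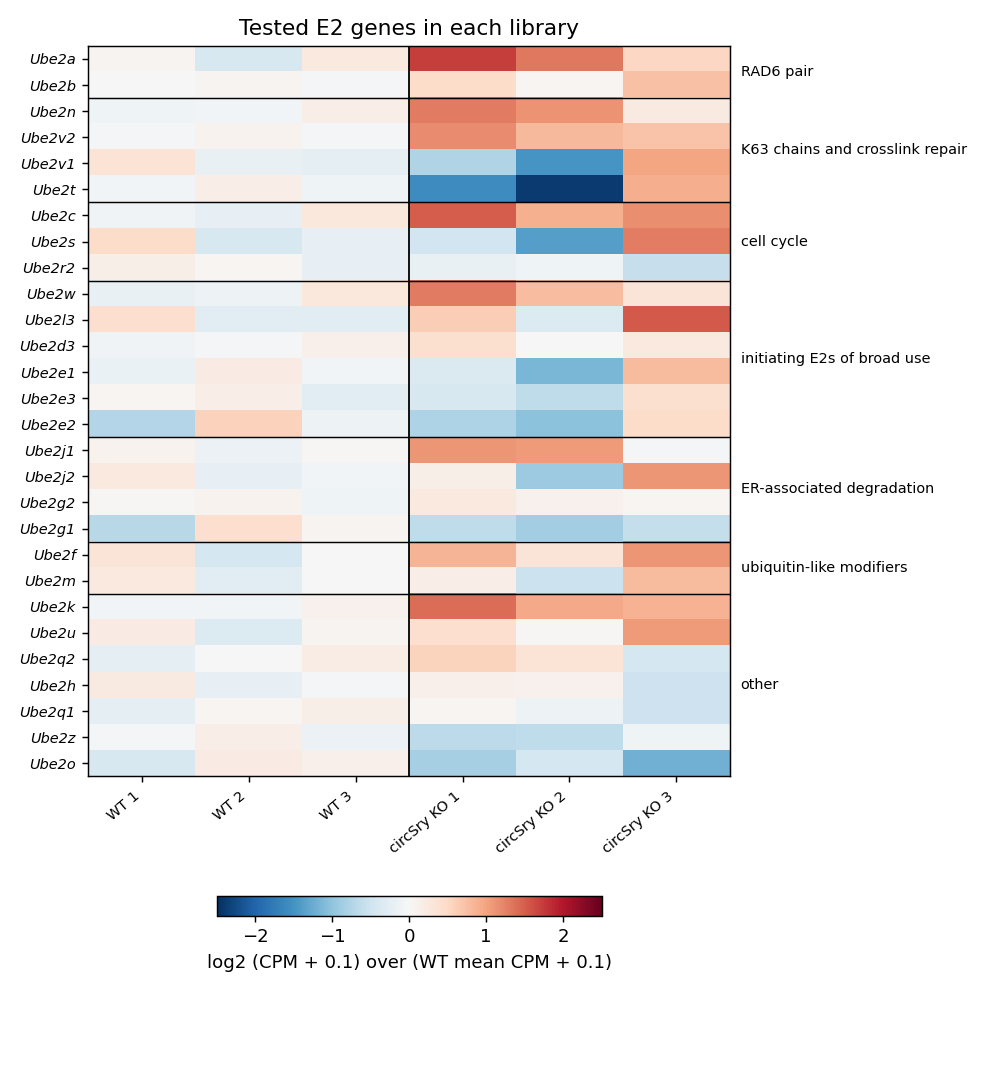
The tested E2 genes reported here (rows, grouped by role) in each library (columns) as log2 of CPM over the WT mean, with 0.1 added to both; red is higher and blue lower. Ube2t is darkest blue in circSry KO replicate 2 and red in replicate 3, and Ube2s and Ube2v1 switch colour in the same way.

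Members in which KO replicates 1 and 2 were both below all WT libraries numbered 8 (27.6%, against 28.8% of all genes). In 5 of these, Ube2e1, Ube2e3, Ube2s, Ube2t and Ube2v1, KO replicate 3 lay above all WT libraries (17.2%, against 8.56% of all genes). In the opposite direction KO replicates 1 and 2 were both above all WT libraries in 10 members (34.5%, against 30.1%), and KO replicate 3 was below all WT libraries in 1 of them, Ube2q2 (3.45%, against 8.83%). Over all 3 KO libraries, 7 members lay above all WT libraries and 1 below (24.1% and 3.45%, against 14.1% and 14.3% of all genes). Whether these shares differ from those of other genes was not tested.

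Ube2c starts and Ube2s extends the chains that mark cell cycle regulators for destruction at the anaphase-promoting complex. Ube2c stood at 18.6, 17.0 and 23.7 CPM in WT and at 56.6, 36.5 and 44.4 CPM in KO. Each KO library was above each WT library, with a log2 fold change of 1.21 ± 0.33 (SE; edgeR adjusted p = 0.0977). DESeq2 gave 1.16 (adjusted p = 0.0378; alternatives ranged from 0.0131 to 0.421). The groups overlapped in TPM, where KO replicate 3 fell within the WT range (46.2, against 32.8 to 50.3). Exons of Ube2c overlap Tnnc2 on the opposite strand over 592 bases, and the library kit does not mark strand.

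Ube2s stood at 913, 500 and 576 CPM in WT and at 475, 254 and 1608 CPM in KO. KO replicates 1 and 2 were below and KO replicate 3 above all WT libraries, with a log2 fold change of 0.23 ± 0.63 (SE; edgeR adjusted p = 0.851). Leaving out KO replicate 3 gave -0.91 (edgeR adjusted p = 0.0832). Per length the order was different. KO libraries stood at 1505, 1209 and 1224 TPM, each above each WT library. The deposited count and FPKM imply an effective transcript length of 990, 873 and 975 bases in WT, 370 and 320 bases in KO replicates 1 and 2, and 1005 bases in KO replicate 3. The highest over the lowest was 3.14, the largest among the 29 members with at least 20 counts in each library. Over 11660 genes with at least 20 counts in each library the median of this ratio was 1.23 and the 90th percentile 2.20. Annotated Ube2s transcripts are 338, 518, 1126, 1238 and 4093 bases long. A gene's effective length moves with the share of reads given to each transcript, and the shares themselves are not used here. Counts of Ube2s were not whole in any of the 6 libraries, and its exons overlap Rpl28 on the opposite strand over 183 bases.

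**Figure D4:**
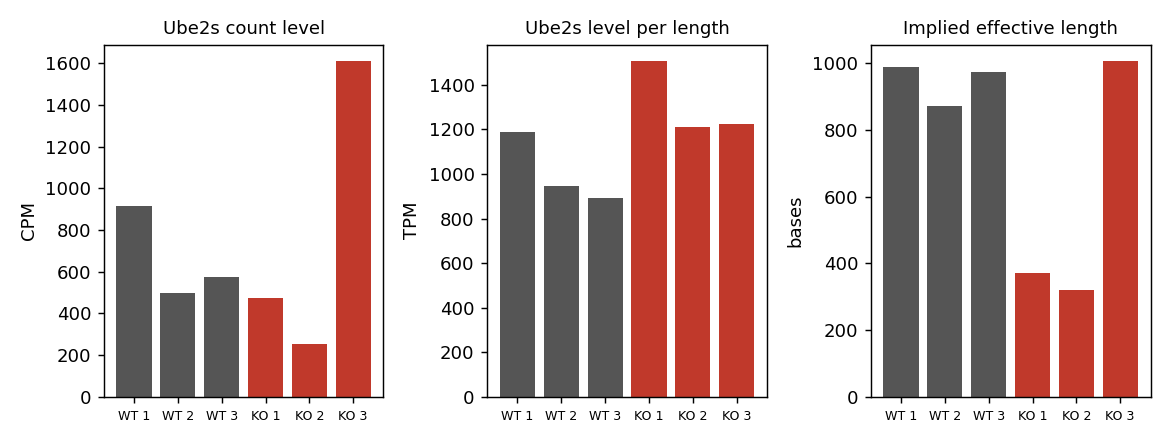
Ube2s in each library as CPM, as TPM and as the effective length in bases implied by the deposited count and FPKM; grey bars are WT and red bars circSry KO. In circSry KO replicates 1 and 2 the CPM are below and the TPM above those of WT, with implied lengths of 370 and 320 bases.

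The remaining cell cycle member, Ube2r2, an E2 of cullin-RING ligases, had a log2 fold change of -0.28 ± 0.31 (SE). Of the list of 16 genes of the anaphase-promoting complex and its activators, 0 passed in edgeR, with 1 higher and 1 lower at an unadjusted p under 0.05 and a median of -0.13. The median was -0.69 without KO replicate 3, with 1 higher and 7 lower after adjustment (against 18.5% and 16.2% of all genes). Anapc10, a subunit that helps recognise targets, averaged 11.1 ± 2.09 CPM in WT against 24.0 ± 6.09 in KO, and the scaffold subunit Anapc1 109 ± 47.3 against 46.5 ± 13.5 CPM (SD, n = 3 each). The activators Cdc20 and Fzr1 had log2 fold changes of -0.36 ± 0.41 and 0.26 ± 0.31 (SE).

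Among E2 enzymes that work with many ligases, Ube2w, which attaches ubiquitin to protein N-termini, stood at 22.8, 23.7 and 31.0 CPM in WT and at 63.5, 44.4 and 32.3 CPM in KO. In CPM the groups did not overlap, with KO replicate 3 close to the highest WT library. The log2 fold change was 0.85 ± 0.36 (SE; edgeR adjusted p = 0.197). In TPM the groups overlapped, and KO replicate 3 (12.96) was below all WT libraries (15.4 to 24.8). Limma on log2(TPM + 1) gave 0.36 (adjusted p = 0.689). Ube2d3 had 0.23 ± 0.28 and Ube2l3 0.80 ± 0.48 (SE). Ube2l3 stood at 190, 119 and 120 CPM in WT and at 219, 113 and 416 CPM in KO, so KO replicate 3 set most of its difference. Without it the log2 fold change was 0.17. Counts of Ube2l3 were not whole, and its exons overlap Ydjc on the opposite strand over 1670 bases. Ube2e1, Ube2e2 and Ube2e3 had log2 fold changes between -0.30 and -0.02 in CPM. Without KO replicate 3 these were -0.75, -0.96 and -0.56, with 0 past adjustment in edgeR. Ube2e1 had -1.01 by limma on log2(TPM + 1) (unadjusted p = 0.0414, adjusted p = 0.205), although its groups overlapped in TPM. Ube2e3 was lower in each KO library than in all WT libraries in TPM (19.7, 20.6 and 20.03, against 34.2 to 48.3), with a log2 fold change of -0.93 by limma on log2(TPM + 1) (adjusted p = 0.145).

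Ube2k, which builds chains that send proteins to the proteasome, stood at 56.3, 56.3 and 63.8 CPM in WT and at 155, 113 and 108 CPM in KO. KO libraries lay above all WT libraries in CPM and also in TPM (192, 171 and 99.4, against 65.1 to 83.8). The log2 fold change was 1.09 ± 0.30 (SE; edgeR adjusted p = 0.0977). DESeq2 gave 1.04 (adjusted p = 0.0389; alternatives ranged from 0.00938 to 0.418). Of the 7 members at an unadjusted p under 0.05 in edgeR, Ube2k and Ube2o were also at an unadjusted p under 0.05 by limma on log2(TPM + 1), where 1 member was higher and 4 were lower (3.45% and 13.8%, against 5.76% and 16.7% of all genes).

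Ube2o, a large enzyme with both E2 and E3 activity that is known for clearing ribosomes from maturing red cells, stood at 112, 171 and 161 CPM in WT and at 82.6, 108 and 64.0 CPM in KO. It was the only member with each KO library below each WT library in CPM, by a narrow margin between KO replicate 2 and WT replicate 1. The log2 fold change was -0.80 ± 0.33 (SE; edgeR unadjusted p = 0.042, adjusted p = 0.197). Ube2z, which receives ubiquitin from the E1 enzyme Uba6, had -0.44 ± 0.31 (SE), and -0.69 without KO replicate 3 (edgeR adjusted p = 0.0741). It was lower in TPM in each KO library (10.99, 14.2 and 10.4, against 18.4 to 27.5). Ube2h, an E2 of the CTLH ligase, had -0.07 ± 0.32, Ube2q1 -0.18 ± 0.30, Ube2q2 0.21 ± 0.35 and Ube2u 0.57 ± 0.36 (SE). Without KO replicate 3, Ube2h had 0.064, Ube2q1 -0.086, Ube2q2 0.41 and Ube2u 0.19; without KO replicate 1, Ube2q2 had 0.0072.

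**Figure D5:**
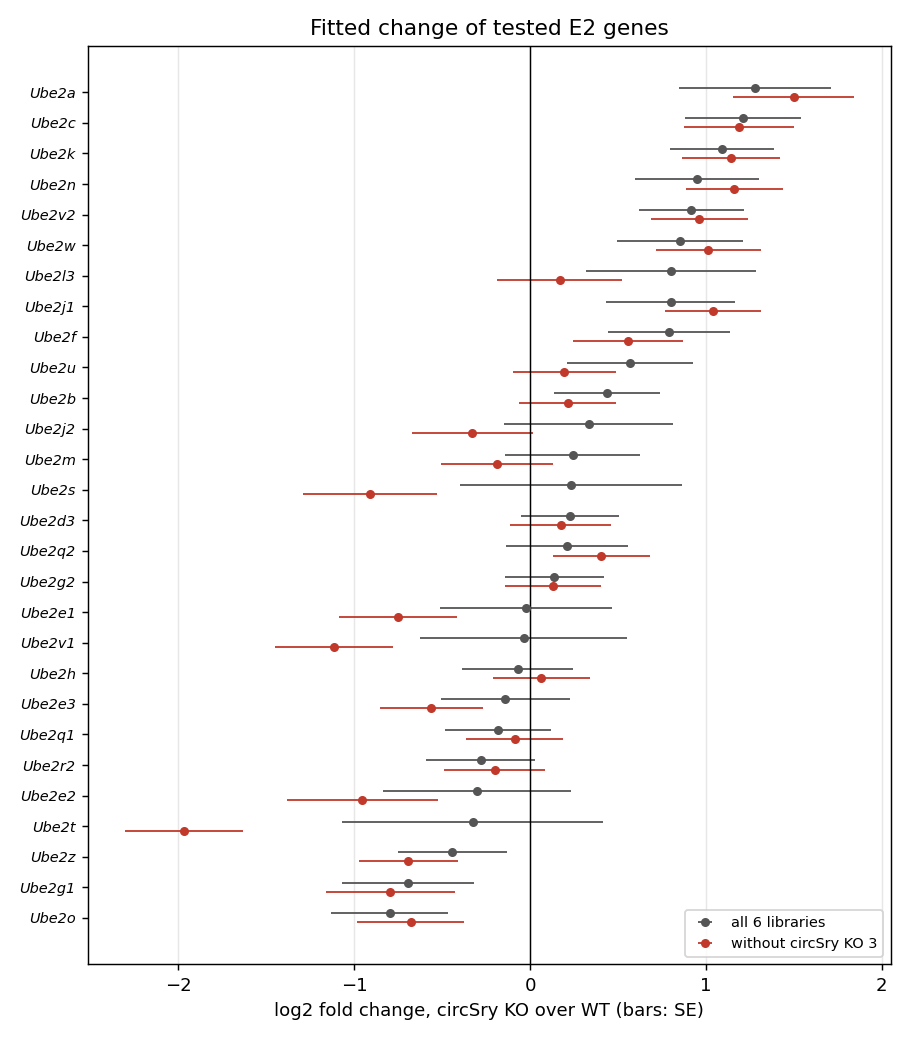
Log2 fold change of the tested E2 genes reported here in edgeR with its SE, from all 6 libraries (grey) and without circSry KO replicate 3 (red), ordered by the former. Ube2a, Ube2c, Ube2k, Ube2n, Ube2v2 and Ube2w stay between 0.85 and 1.50 in both fits, while Ube2t goes from -0.33 to -1.97.

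Of the 4 E2 enzymes of endoplasmic reticulum-associated degradation, which removes misfolded secretory proteins, Ube2j1 has a known role in sperm formation in mice. It stood at 189, 160 and 181 CPM in WT and at 379, 372 and 172 CPM in KO. In CPM, KO replicates 1 and 2 were above all WT libraries and KO replicate 3 within their range. The log2 fold change was 0.80 ± 0.37 (SE; edgeR adjusted p = 0.23). In TPM, KO replicate 3 was below all WT libraries (236, 350 and 40.7 in KO, against 131 to 138 in WT). Limma on log2(TPM + 1) gave 0.17 (adjusted p = 0.909). A fit that left out KO replicate 3 gave 1.04 (edgeR adjusted p = 0.0133; alternatives ranged from 0.0133 to 0.916). Ube2j2 stood at 151, 110 and 122 CPM in WT and at 142, 68.4 and 273 CPM in KO, and was lower in each KO library in TPM (162, 103 and 200, against 211 to 228). Its log2 fold change was 0.33 ± 0.48 (SE) in CPM and -0.55 on the log2(TPM + 1) scale, and in CPM without KO replicate 3 it was -0.33. Ube2g1 had -0.70 ± 0.37 and Ube2g2 0.14 ± 0.28 (SE).

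The list of 16 ligases and cofactors of this pathway had a median log2 fold change of -0.11. Without KO replicate 3 it was -0.45, with 1 higher and 5 lower after adjustment (against 18.5% and 16.2% of all genes). With all libraries 0 passed in edgeR, and at an unadjusted p under 0.05 there were 4 lower and 0 higher genes. Sel1l, a partner of the ligase Syvn1, averaged 92.9 ± 26.0 CPM in WT against 43.3 ± 11.9 CPM in KO (SD, n = 3 each), without overlap. The ATPase Vcp had a log2 fold change of -0.76 ± 0.37 and the ligase Rnf139 1.06 ± 0.48 (SE).

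Of the enzymes of ubiquitin-like modifiers, Ube2f and Ube2m, which pass NEDD8 to cullins, had log2 fold changes of 0.79 ± 0.35 and 0.24 ± 0.39 (SE); without KO replicate 3 Ube2m had -0.19. Ube2f stood at 84.2, 49.7 and 68.2 CPM in WT and at 121, 83.8 and 145 CPM in KO, where KO replicate 2 lay just below the highest WT library (edgeR adjusted p = 0.214). Of the list of 22 SUMO and NEDD8 ligases and cullins, 0 passed in edgeR, with 3 higher and 3 lower at an unadjusted p under 0.05 and a median of 0.12. The median was -0.15 without KO replicate 3, with 5 higher and 5 lower after adjustment (against 18.5% and 16.2% of all genes). The ubiquitin ligase scaffolds Cul4a and Cul9 had -1.69 ± 0.37 and -1.72 ± 0.39, and the abundant Pias2 and Cul3 had 0.36 ± 0.32 and -0.11 ± 0.30 (SE).

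Upstream of the E2 step, the list of 11 E1 genes had a median log2 fold change of -0.52; 0 passed in edgeR, and at an unadjusted p under 0.05 there were 2 lower and 0 higher genes. The median was -0.80 without KO replicate 3, and 1 was higher and 5 were lower after adjustment (against 18.5% and 16.2% of all genes). Uba3, a subunit of the NEDD8 E1, averaged 36.3 ± 6.86 CPM in WT against 14.1 ± 7.79 in KO, and Uba6, an alternative E1 for ubiquitin, 43.1 ± 16.5 against 20.6 ± 1.73 CPM (SD, n = 3 each), without overlap. The SUMO E1 subunits Uba2 and Sae1 had log2 fold changes of -0.40 ± 0.35 and -0.91 ± 0.43 (SE). Of 11 tested genes for ubiquitin and related precursors, 0 passed in edgeR, with a median of 0.32; without KO replicate 3 it was -0.32, with 0 higher and 2 lower after adjustment. Ubb, a polyubiquitin gene, had 0.32 ± 0.31 (SE).

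Of 16 genes related to the E2 enzymes but outside the naming rule, 13 were tested; 0 passed in edgeR, and 3 were higher and 0 lower at an unadjusted p under 0.05, with a median of 0.50. It was 0.17 without KO replicate 3, with 2 higher and 0 lower after adjustment (against 18.5% and 16.2% of all genes). Ube2dnl2 and Ube2dnl1, relatives of Ube2d, averaged 1.85 ± 0.089 CPM against 6.61 ± 0.471 and 2.83 ± 1.29 CPM against 9.03 ± 3.08 (SD, n = 3 each), without overlap. Ube2d2b and Ube2d2a had log2 fold changes of 0.59 ± 0.34 and 0.15 ± 0.34 (SE).

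Markers of other testis cells were compared by their summed level, and of each list 0 genes passed an adjusted p of 0.05 in edgeR. Sums did not overlap between groups for spermatid, Sertoli, Leydig and macrophage markers; those of spermatogonia overlapped, and those of endothelial and peritubular cells were above all WT libraries in KO replicates 1 and 2 and below them in replicate 3. Round spermatid markers (16 of 16 tested) summed to 1134 to 2025 CPM in WT and 3135 to 4158 in KO, and elongating spermatid markers (12 of 12) to 2603 to 3956 and 7497 to 17114. Spermatogonia markers (12 of 12) summed to 232 to 278 CPM in WT and 227 to 315 in KO. The 12 Sertoli cell markers, of which 8 were tested, summed to 85.1 to 110 and 240 to 410 CPM. Leydig cell markers (10 of 10) summed to 625 to 905 and 261 to 619 CPM. The 12 macrophage markers, of which 9 were tested, summed to 30.1 to 46.2 CPM in WT, 491 and 279 in KO replicates 1 and 2 and 51.9 in replicate 3. Endothelial and peritubular markers (12 of 12) summed to 190 to 272 CPM in WT, 689 and 784 in KO replicates 1 and 2 and 73.3 in replicate 3. No marker of these lists was at 0 in all 6 libraries. At an unadjusted p under 0.05 in edgeR, 14 round spermatid, 11 elongating spermatid, 4 spermatogonia, 7 Sertoli, 8 macrophage and 2 endothelial or peritubular markers were higher, 8 Leydig markers were lower, and 2 of 7 spermatocyte genes were lower. Over all genes tested 13.6% were higher and 9.84% lower by that rule. The part of these cells in the E2 values above was not tested.

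Without KO replicate 3, edgeR called 9 members higher (Ube2a, Ube2c, Ube2d1, Ube2j1, Ube2k, Ube2l6, Ube2n, Ube2v2 and Ube2w) and 2 lower (Ube2t and Ube2v1) of 31 tested. That is 29% and 6.45%, against 18.5% and 16.2% of all genes in that fit. Ube2d1 and Ube2l6 entered it only through the KO libraries in which they were high, so their calls had to go that way.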

How the data were processed

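Per the file headers, the authors' deposited table gives an expected count, a TPM and an FPKM per gene in the 6 libraries. The authors' TPM and FPKM are scaled within a library and by transcript length, and the deposited counts are unscaled; for edgeR and DESeq2 they were rounded to whole numbers. Tools listed in the submitters' processing notes are STAR 2.7.0f, RSEM 1.3.2 and edgeR 3.28.1, and the genome builds listed are GRCm39 and mm9. Their roles and the gene annotation behind the table are not stated in these sources. Strand is not marked by the library kit, per the labels' protocols. Positions, UTRs and transcripts came from GENCODE M21 (GRCm38), matched by gene identifier; 1607 of 53700 rows had no match.

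The main test was edgeR's quasi-likelihood F test for genotype (version 4.0.16, R 4.3.3), after filterByExpr and with TMM factors; p-values were adjusted by Benjamini-Hochberg over all 16829 genes. The SE is the log2 fold change over the square root of F. Alternatives were DESeq2 1.42.0, limma 3.58.1 (voom, and log2 TPM with 2 pseudocounts), RLE factors, no filter, a replicate block, removal of each library's length trend, and leaving out each library. CPM used TMM-scaled library sizes. Effective length is the count over FPKM and library total. The fit was also run on simulated counts with known changes, in which no library stood apart as KO replicate 3 does. The outcome of that run is not used here. Pair ratios were of TPM + 0.1 and used an exact permutation test.

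Members, gene lists and alternatives were chosen with earlier results of these data known. Named were Ube2a and Ube2b, members at an unadjusted p under 0.05, the 5 highest in WT, those not tested, and in each pathway list the 2 genes with the smallest p and the 2 most abundant. Others were chosen after their values were seen. Depth was 7400360 to 9294723 counts per library. Values of some genes that this rule names are not reported here; they stay in the counts.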

Additional observations from a re-analysis of the deposited data

How the results depend on the processing

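E2 genes called at an adjusted p of 0.05 numbered 0 in each direction in edgeR with TMM or RLE factors, no filter, a replicate block or the length trend removed, in limma-voom and in limma on both TPM scales. DESeq2 called 2 higher and 0 lower, and leaving out 1 library gave 0 to 9 higher and 0 to 2 lower, in each case with calls in the fit without circSry KO replicate 3 alone. Over all genes the counts of 0 became 935 higher and 679 lower in DESeq2, 548 and 321 with no filter, 4 and 2 on log2(TPM + 1), 4 and 3 on log2(TPM + 0.1), and 0 to 3319 and 0 to 2909 over left-out libraries. Of 29 tested members, 18 kept the sign of their log2 fold change in all 14 alternatives. With the length trend removed the sign changed for Ube2d3 (-0.086), Ube2h (0.11), Ube2j2 (-0.11), Ube2m (-0.26) and Ube2s (-0.42). On log2(TPM + 1) and log2(TPM + 0.1) it changed for Ube2j2 (-0.55 and -0.56), Ube2m (-0.11 and -0.11) and Ube2q2 (-0.34 and -0.35), and for Ube2s in limma-voom (-0.15). Over left-out libraries the log2 fold change was -0.75 to 0.32 for Ube2e1, -0.96 to 0.12 for Ube2e2, -0.56 to 0.053 for Ube2e3, -0.18 to 0.064 for Ube2h, -0.33 to 0.70 for Ube2j2, -0.19 to 0.51 for Ube2m, -0.91 to 0.65 for Ube2s, -1.97 to 0.13 for Ube2t and -1.11 to 0.36 for Ube2v1. The median of all genes, 0.12, moved by -0.37 and -0.46 on the TPM scales, -0.14 in limma-voom and -0.12 with the replicate block. Deviations of same-numbered libraries from their group means correlated across genes at 0.035, 0.33 and -0.27, and those of differently numbered libraries at -0.47 to 0.35. With 3 libraries per group these values cannot settle whether samples of 1 number shared a batch. Under the replicate block 0 genes were called, with Ube2s at -0.19. For pairs, the Ube2l6 to Ube2l3 difference of 0.088 was -0.011 in FPKM and -0.066 with no pseudocount. Differences of log2 ratios over left-out libraries were -1.48 to 0.22 for Ube2d3 to Ube2d1, -0.18 to 0.32 for Ube2e3 to Ube2e1, -1.87 to 0.16 for Ube2j2 to Ube2j1, -0.93 to 1.68 for Ube2l6 to Ube2l3, -0.0037 to 0.28 for Ube2q2 to Ube2q1 and -0.036 to 0.58 for Ube2f to Ube2m. Causes of these changes were not tested. Counts under about 20 per library limit Ube2d1 and Ube2l6.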
